A study of Mus musculus with 20 samples.

Results

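T cells and NK cells pass receptor signals through short transmembrane chains and a few kinases, and 10 of these genes were followed here in thymic precursors of intraepithelial lymphocytes. The genes were the CD3 chains Cd3d, Cd3e, Cd3g and Cd247, the NK-type adaptors Fcer1g, Tyrobp and Hcst, and the kinases Lck, Zap70 and Syk. They were chosen by name, with earlier results of these data known, and all 10 were listed among the 25246 genes left after mitochondrial transcripts and spike-ins were set aside. Single IELPs (CD4-CD8- thymocytes with an αβ T cell receptor) were sorted by CD122, the β chain of the IL-2 and IL-15 receptors, and by the ZsGreen reporter of T-bet (TBGR), which all 3 mice carried. The TBGR mouse was 4 weeks old and gave 4 populations, each in 2 libraries of 96 cells. The TBGR C-mycfl/fl mouse was 2 weeks old, carried floxed C-myc alleles, and gave the same populations in 4 libraries each, with 48 cells of a population per library. The populations were CD122- cells without T-bet (CD122-T-bet- in the labels, CD122- from here on), CD122+ cells without T-bet (CD122+T-bet-), and CD122+ cells with intermediate (T-bet int) or high T-bet (T-bet high). The TBGR C-mycD/DCd4 mouse was also 2 weeks old, had lost C-myc through Cre driven by Cd4, and gave the 2 T-bet- populations, each in 2 libraries of 96 cells.

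The deposited design text speaks of a single mouse of each kind, the methods of mice, and the labels give no animal numbers, so the libraries of a population were read as repeat sorts from 1 animal and no test between mice was made. Cre under Cd4 acts in cells that have expressed Cd4, which limits the deletion to cells with that history. The study sorted NK1.1- cells according to its methods, whereas the deposited design text names NK1.1+ cells; Klrb1c, the gene of NK1.1, stood, in CPM (transcripts per 1000000), at 0, 10.9, 39.5 and 563 in the 4 TBGR populations in the order given above. Of 1920 sorted cells, 1413 held a population label and at least 2000 transcripts, namely 678 of 768 TBGR, 470 of 768 TBGR C-mycfl/fl and 265 of 384 TBGR C-mycD/DCd4 cells. A library held 94268 to 775264 transcripts of a population in 22 to 94 such cells. The second TBGR T-bet high library stood apart, with 55 cells against 92 in the first and with empty barcodes at 5.08% of its cells' transcripts against at most 0.745% elsewhere. TBGR C-mycfl/fl library 4 of CD122+T-bet- cells was the shallowest, with 22 cells and 94268 transcripts. The 20 libraries used 2 sets of cell barcodes with 0 barcodes common to both, 10 libraries to a set. Il2rb, the gene of CD122, was at 2.61 to 9.88 CPM in CD122- cells and at 222 to 515 CPM in CD122+ cells. Tbx21, the gene of T-bet, was at 0 to 6.60 CPM in T-bet- cells, 18.8 to 48.0 CPM in T-bet int and 60.0 to 165 CPM in T-bet high cells. Myc itself, the targeted gene, read 63.0, 14.0, 62.3 and 24.4 CPM in the TBGR C-mycfl/fl CD122- libraries against 16.7 and 30.0 CPM in TBGR C-mycD/DCd4. In CD122+T-bet- cells it read 73.8, 125, 135 and 10.6 CPM against 44.5 and 9.96 CPM. The 2 genotypes overlapped in both populations, and whether the counted 3' end lies in the deleted stretch is not given in the sources used here.

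An antigen receptor has no kinase of its own. Its αβ chains sit with CD3γ, CD3δ, CD3ε and the ζ chain (the product of Cd247), whose tyrosine motifs (ITAMs) are phosphorylated by Lck and then hold Zap70. NK cells use related chains: FcRγ (Fcer1g) and DAP12 (Tyrobp) also carry ITAMs and engage Syk or Zap70, while DAP10 (Hcst) carries a different motif that recruits PI3-kinase and pairs with NKG2D. FcRγ and ζ are related in sequence and can stand in for each other in some receptor complexes, and unconventional T cells of the gut are known for using FcRγ.

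Several members are neighbours in the genome (GENCODE M21, GRCm38). Cd3g (chr9:44969572-44980431, minus strand), Cd3d (chr9:44981786-44987339, plus strand) and Cd3e (chr9:44998740-45009627, minus strand) lie in a row, with 1354 bases between Cd3g and Cd3d and 11400 between Cd3d and Cd3e. Tyrobp (chr7:30413760-30417585, plus strand) and Hcst (chr7:30417712-30419854, minus strand) end 126 bases apart, tail to tail. Fcer1g (chr1:171229572-171234365, minus strand), Cd247 (chr1:165788681-165877277, plus strand) and Zap70 (chr1:36761798-36782818, plus strand) share chromosome 1, Lck is at chr4:129548344-129573641 on the minus strand and Syk at chr13:52583173-52648792 on the plus strand. Cd247 overlaps Pou2f1 and several predicted genes, most of them on the other strand. Reads were mapped in sense direction according to the methods, so genes on the other strand do not share its reads, whereas a predicted gene on the same strand could.

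The sequence upstream of the start is shown for Fcer1g, Hcst and Cd247, the 3 members that moved past 2-fold between sorted populations of the TBGR mouse and so chosen after their values were seen, from RefSeq on GRCm38.p6, read 5' to 3' on the gene's strand. Capitals mark matches to the E-box CANNTG and to the ETS core AGGAAG on either strand. The stretches lie at chr1:171234366-171234599 (minus) for Fcer1g, chr7:30419855-30420104 (minus) for Hcst and chr1:165788431-165788680 (plus) for Cd247.
Fcer1g: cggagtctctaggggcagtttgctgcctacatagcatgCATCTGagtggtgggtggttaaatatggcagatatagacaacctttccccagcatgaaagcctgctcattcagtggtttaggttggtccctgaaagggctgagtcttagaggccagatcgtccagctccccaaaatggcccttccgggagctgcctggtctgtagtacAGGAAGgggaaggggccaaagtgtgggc
Hcst: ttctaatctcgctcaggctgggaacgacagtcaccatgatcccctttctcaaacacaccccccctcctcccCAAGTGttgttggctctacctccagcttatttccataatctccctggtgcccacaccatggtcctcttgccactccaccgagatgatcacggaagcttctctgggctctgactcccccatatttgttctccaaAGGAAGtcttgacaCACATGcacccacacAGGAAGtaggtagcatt
Cd247: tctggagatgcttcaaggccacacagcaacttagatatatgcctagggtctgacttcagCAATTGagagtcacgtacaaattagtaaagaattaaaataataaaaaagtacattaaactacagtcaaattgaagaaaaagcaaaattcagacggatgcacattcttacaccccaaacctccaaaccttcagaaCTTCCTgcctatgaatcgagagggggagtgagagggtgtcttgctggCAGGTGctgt
The 5 motifs searched on both strands were the T-box core TCACAC, the E-box CANNTG, the Myc E-box CACGTG (which is also an E-box), the ETS core AGGAAG and the Runx core TGTGGT. No marked match overlapped another. Fcer1g held 1 E-box and 1 ETS match, Hcst held 2 of each, and Cd247 held 2 E-boxes and 1 ETS match. The T-box core, the Myc E-box and the Runx core had 0 matches in all 3. Among the 32851 RefSeq promoters cut to 250 bases, 66.2% held an E-box, 29.5% an ETS core, 14.0% a Runx core, 12.3% the T-box core and 6.02% the Myc E-box. These are letters in a window, not measured binding.

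**Figure D1:**
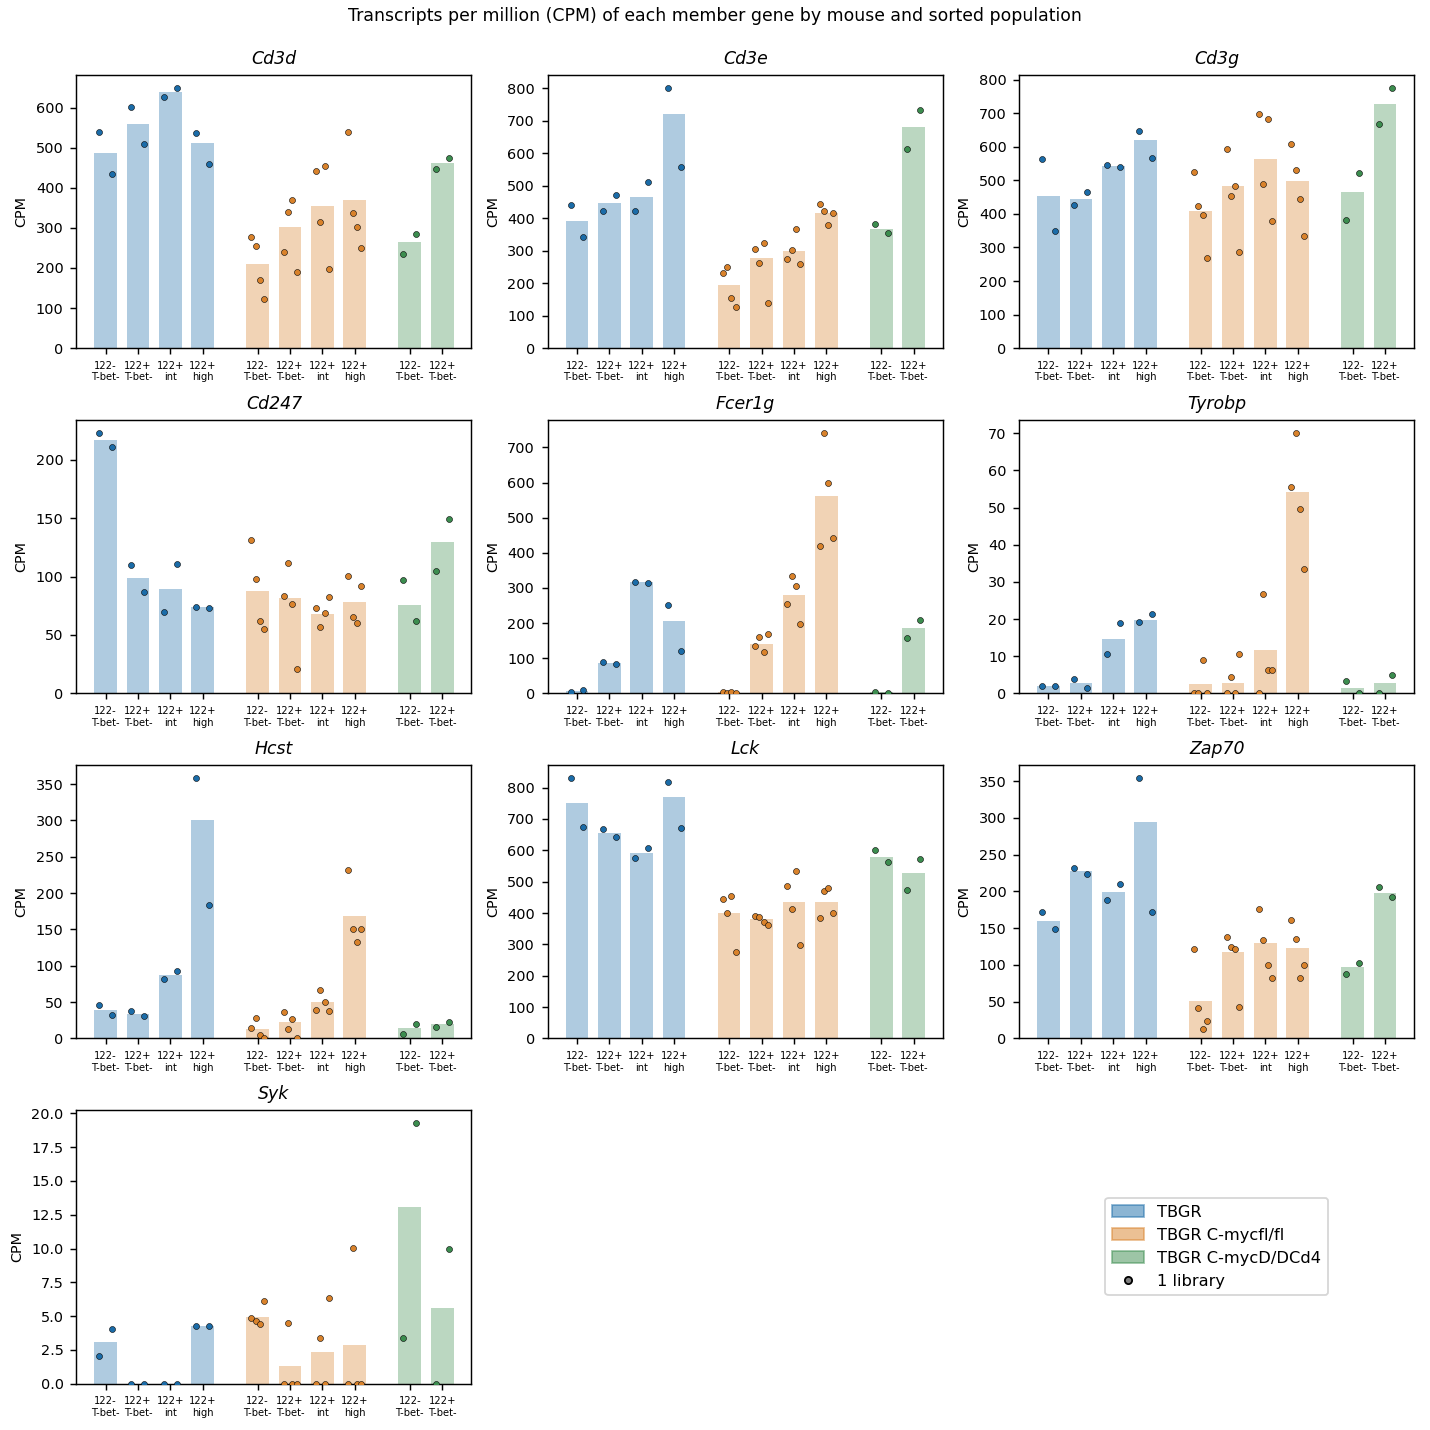
Level of each member (CPM, linear axes that start at 0) by genotype and sorted population, where a bar is the pooled level of the population, a point is 1 library, and the axis labels leave out the CD of CD122. Fcer1g is at 4.13 and 8.05 CPM in the TBGR CD122- libraries and at 318 and 315 CPM in T-bet int, whereas Lck stays between 576 and 831 CPM in all TBGR libraries.

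Fcer1g showed the widest range of the 10 genes. In the TBGR mouse its level was 4.13 and 8.05 CPM in the 2 CD122- libraries, 89.0 and 82.2 in CD122+T-bet-, 318 and 315 in T-bet int, and 250.3 and 119.9 in T-bet high. The libraries of neighbouring populations did not overlap at any of these steps. From CD122- to CD122+T-bet- cells Fcer1g rose 13.0-fold (log2 ratio 3.70, 95% interval 2.65 to 5.28, from 6 and 126 transcripts). With each cell thinned to 2000 transcripts the log2 ratio was 2.29, from too few transcripts to be called under the minimum of 50 used here. Fcer1g rose a further 3.68-fold in T-bet int cells (log2 1.88, interval 1.59 to 2.18). From T-bet int to T-bet high the log2 ratio was -0.61 (interval -0.89 to -0.34), short of the 2-fold limit. The deeper T-bet high library alone gave -0.33 and the shallow second library alone -1.38, so the size of that last step depended on which library was read. All intervals here cover counting error only. Throughout, a gene is said to have risen or fallen if the pooled levels differed at least 2-fold, the libraries of the groups did not overlap, and the groups together held at least 50 transcripts.

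In the TBGR mouse Hcst rose into T-bet int cells as Fcer1g did, but differed from it at the first and last steps. Its TBGR levels were 45.5 and 32.2 CPM in CD122-, 37.4 and 30.3 in CD122+T-bet-, 81.8 and 93.3 in T-bet int, and 359 and 184 in T-bet high libraries. The first 2 populations overlapped (log2 -0.19, interval -0.82 to 0.46). Hcst then rose 2.55-fold in T-bet int cells (log2 1.35, interval 0.87 to 1.87) and 3.43-fold more in T-bet high cells (log2 1.78, interval 1.45 to 2.12). With 1 T-bet high library at a time, that last log2 ratio was 2.03 or 1.09. Hcst passed 2-fold at this step and Fcer1g did not.

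Tyrobp was counted too rarely to be called at any step. The TBGR libraries held 2.07 and 2.01 CPM in CD122-, 3.87 and 1.44 in CD122+T-bet-, 10.6 and 19.0 in T-bet int, and 19.1 and 21.4 in T-bet high cells, from 2, 4, 19 and 14 transcripts. The T-bet int libraries lay above the CD122+T-bet- ones and the T-bet high libraries above those, with wide intervals (log2 2.30, 0.84 to 4.45, and log2 0.45, -0.67 to 1.51).

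The CD3 chains moved far less, and Cd247 moved the other way. Cd247, the ζ chain, was at 223 and 211 CPM in TBGR CD122- libraries and at 109.6 and 86.5 in CD122+T-bet-. It fell by 1.14 on the log2 scale (interval -1.45 to -0.83), and without the second CD122+T-bet- library the value was -0.98, just short of the limit. It then read 69.7 and 111 CPM in T-bet int and 74.3 and 72.8 in T-bet high cells, with overlapping libraries at both steps (log2 -0.14 and -0.28).

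Cd3e, the ε chain, was at 440.3 and 342 CPM in CD122-, 423 and 469.9 in CD122+T-bet-, 423 and 512 in T-bet int, and 802 and 557 in T-bet high libraries. Only the last step separated its libraries (log2 0.63, interval 0.45 to 0.80), and the shallow T-bet high library alone gave 0.26. Cd3d, the δ chain, was at 539.5 and 435 CPM, then 602 and 509, then 626 and 649.8, then 537 and 458 over the same populations. Its T-bet high libraries lay below the T-bet int ones (log2 -0.32, interval -0.50 to -0.14). Cd3g, the γ chain, was at 562 and 350.4, then 427 and 464, then 547 and 539, then 647 and 565 CPM. No step of Cd3d, Cd3e or Cd3g reached 2-fold in this mouse. At the first step Cd3d and Cd3e were at log2 0.20 and 0.19, below the median of all genes tested, which was itself shifted to 0.26, and at -0.07 and -0.08 relative to it.

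Lck, the kinase that phosphorylates the ITAMs, was at 831 and 675 CPM in CD122-, 669 and 641 in CD122+T-bet-, 576 and 609 in T-bet int and 817 and 673 in T-bet high libraries. The libraries separated at each step but by at most 0.38 in log2 ratio. Zap70, the kinase that binds the phosphorylated chains, was at 172 and 149, then 232 and 223, then 188 and 210.3, then 354 and 171 CPM. Its log2 ratios were 0.51 (interval 0.23 to 0.79), -0.20 (-0.44 to 0.04) and 0.56 (0.29 to 0.83), and at the last step the libraries overlapped, with 0.83 or -0.20 when 1 T-bet high library was used. Syk, the related kinase of many ITAM receptors outside T cells, was nearly absent: 3, 0, 0 and 3 transcripts in the 4 TBGR populations. A count of 0 there allowed up to 2.04 CPM in CD122+T-bet- and 2.32 CPM in T-bet int cells, taking 3 counts as the limit.

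Counted over the members, 8 of 10 had enough transcripts at each TBGR step. At the first step 1 rose (Fcer1g), where 11.2% of all tested genes did, and 1 fell (Cd247), where 3.05% did. Fcer1g had enough transcripts there only through the CD122+T-bet- cells (126 transcripts against 6). At the second, 2 rose (Fcer1g and Hcst), where 2.58% of genes rose and 4.12% fell. At the last, 1 rose (Hcst), where 6.58% rose and 9.87% fell. Libraries that did not overlap, whatever the fold, were found for 4, 6 and 6 of the 8 at these steps, beside 54.6, 50.7 and 55.8% of all genes. With 8 members tested, nothing is read from these counts against those shares.

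**Figure D2:**
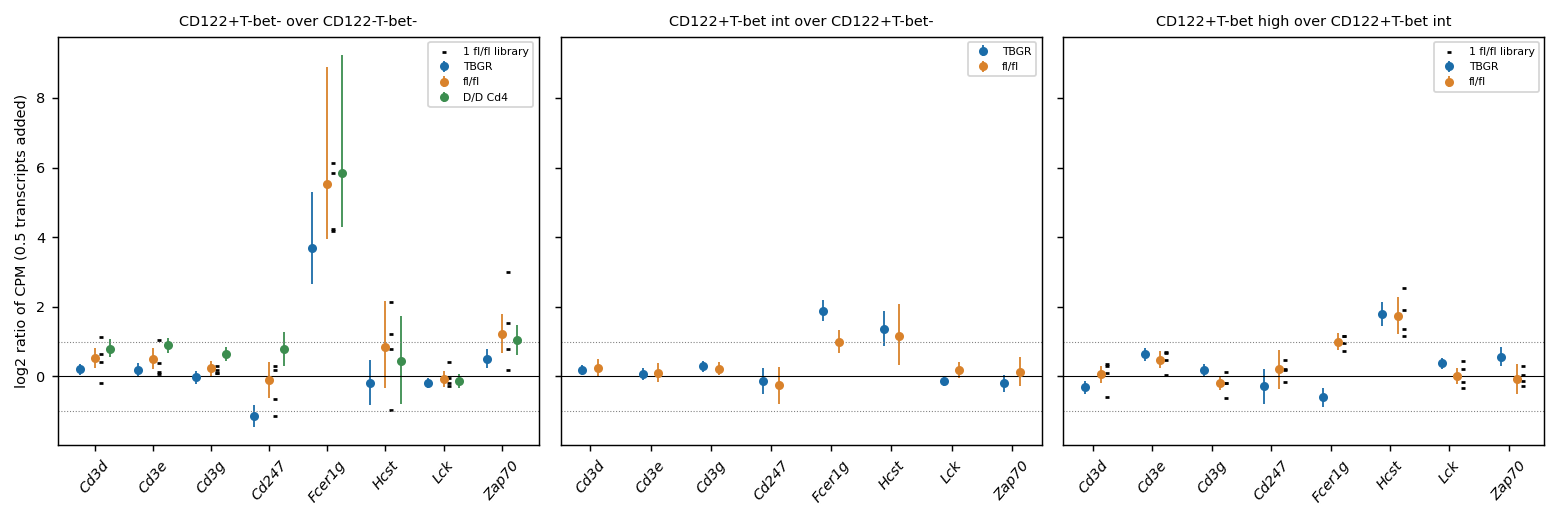
Log2 ratio of pooled CPM for 8 members at each step between sorted populations in the TBGR, TBGR C-mycfl/fl (fl/fl) and TBGR C-mycD/DCd4 (D/D Cd4) mice, where lines are 95% counting intervals, short black bars are the ratios within single fl/fl libraries and dotted lines mark 2-fold. Fcer1g stands highest at the step from CD122- to CD122+ in each mouse (log2 3.70, 5.52 and 5.84), and Hcst lies above 2-fold at both later steps.

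The TBGR C-mycfl/fl mouse was younger and is therefore set beside the TBGR mouse without a comparison of levels. Its libraries each held a pair of populations, which allowed the first and last steps to be read within a library. Fcer1g was at 4.85, 0, 4.45 and 0 CPM in CD122- cells (2 transcripts in all, where 3 counts would be 3.70 CPM) and at 134, 160.3, 117 and 169.7 CPM in the CD122+T-bet- cells of the same libraries. The within-library log2 ratios were 4.22, 6.13, 4.16 and 5.84, so Fcer1g rose in 4 of 4 libraries (pooled log2 5.52, interval 3.95 to 8.90). It then stood at 253, 335, 305 and 196 CPM in T-bet int cells, all above the T-bet- cells (log2 0.99, interval 0.66 to 1.33).

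In T-bet high cells of this mouse Fcer1g read 418, 742, 599.8 and 442 CPM. Each library was higher than its own T-bet int cells, by 0.72, 1.15, 0.97 and 1.16 on the log2 scale, and the pooled ratio was 0.998 (interval 0.76 to 1.24). Both pooled values lay just under the 2-fold limit, so single libraries decided the call: without CD122+T-bet- library 2 or 4 the step into T-bet int was 1.07 or 1.03, without T-bet int library 1 or 4 it was 1.04 or 1.09, and without the first library the step into T-bet high was 1.08. The TBGR mouse had a ratio below 0 at the same step, with its T-bet high libraries below its T-bet int libraries. The difference between these mice was not tested, and age, C-myc allele and mouse cannot be told apart.

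Hcst in TBGR C-mycfl/fl cells was at 14.5, 27.9, 4.45 and 0 CPM in CD122-, 36.9, 13.4, 27.1 and 0 in CD122+T-bet-, 38.6, 67.0, 49.8 and 38.0 in T-bet int, and 232, 150.4, 132 and 150.2 in T-bet high cells. It rose from CD122+T-bet- to T-bet int (log2 1.15, interval 0.33 to 2.07, from 17 and 43 transcripts) and again to T-bet high (log2 1.73, interval 1.22 to 2.28). The last step was 2.52, 1.16, 1.35 and 1.91 within the 4 libraries. The step into T-bet int was under the limit without CD122+T-bet- library 2 or 4 (0.91 and 0.96) and without the second T-bet int library (0.88).

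Tyrobp reached its highest level in these T-bet high cells, at 55.4, 70.2, 49.5 and 33.4 CPM (38 transcripts) against 0, 26.8, 6.22 and 6.33 CPM (10 transcripts) in T-bet int cells of the same libraries. The ratio was above 0 in 4 of 4 libraries (pooled log2 2.16, interval 1.18 to 3.38), but the transcripts together stayed under the limit of 50. Below T-bet int, Tyrobp was at 2 transcripts in each of the T-bet- populations.

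Among the CD3 chains and kinases of the TBGR C-mycfl/fl mouse, Zap70 alone passed a step. It was at 121, 41.9, 13.3 and 24.4 CPM in CD122- and at 138, 125, 122 and 42.4 CPM in CD122+T-bet- cells, with within-library log2 ratios of 0.19, 1.52, 2.99 and 0.80 (pooled 1.21, interval 0.67 to 1.79). The median of all genes tested was shifted to 0.52 at this step, and relative to it Zap70 was at 0.69. Without the third library the log2 ratio of Zap70 was 0.83. Cd247 was at 131, 97.7, 62.3 and 54.9 CPM in CD122- and 83.0, 111, 76.7 and 21.2 in CD122+T-bet- cells, which overlapped (log2 -0.10, interval -0.61 to 0.41). No fall of Cd247 was detectable at this step. Cd3d (122 to 276 CPM in CD122-, 250.3 to 539 in T-bet high), Cd3e (128 to 251, then 379.7 to 443) and Cd3g (268 to 524, then 334 to 609.6) had log2 ratios of at most 0.52 at any step. Relative to the median, the first-step values of Cd3d, Cd3e and Cd3g were at or below 0. Lck stayed at 274 to 535 CPM in all libraries, and Syk had 4, 1, 2 and 2 transcripts.

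At the first step of this mouse 2 of 7 tested members rose (Fcer1g and Zap70), where 12.8% of genes rose and 1.69% fell. At the second, 1 of 8 rose (Hcst), where 0.427% rose and 0.19% fell, and at the last 1 of 8 rose (Hcst), where 2.16% rose and 3.36% fell. The libraries of 4, 2 and 3 members lay apart at these steps (at the first and last, the same direction in each library), beside 36.6, 2.44 and 28.6% of genes. At the first step Fcer1g (107 transcripts against 2) and Zap70 (89 against 41) had enough transcripts only through the CD122+T-bet- cells. At the last, Hcst (118 against 43) had enough only through the T-bet high cells. Nothing is read from these counts against those shares.

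**Figure D3:**
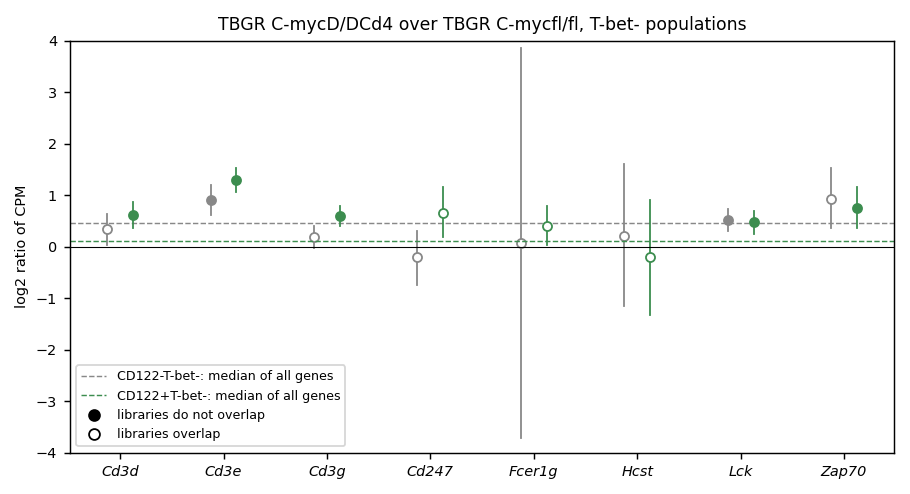
Log2 ratio of TBGR C-mycD/DCd4 over TBGR C-mycfl/fl for 8 members in CD122- (grey) and CD122+T-bet- (green) cells, where lines are 95% counting intervals, filled points mark libraries that do not overlap and dashed lines mark the median of all genes. In CD122+T-bet- cells Cd3e lies at 1.29, and Fcer1g (0.40) and Hcst (-0.19) lie lower than the 4 CD3 chains.

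The 2-week-old mice allowed TBGR C-mycD/DCd4 cells to be set against floxed cells of the same age. Genotype, mouse and library cannot be told apart in this comparison. Fcer1g was at 3.35 and 2.14 CPM in TBGR C-mycD/DCd4 CD122- libraries and at 159 and 209 in CD122+T-bet- libraries. That rise (log2 5.84, interval 4.28 to 9.22) started from 2 transcripts. Between genotypes, CD122+T-bet- cells differed by a log2 ratio of 0.40 (interval 0.03 to 0.79) with overlapping libraries. Hcst was at 15.9 and 22.4 CPM against 36.9, 13.4, 27.1 and 0 CPM in the floxed libraries (log2 -0.19, interval -1.33 to 0.91). Tyrobp had 2 transcripts in each genotype. A lower level of the NK-type adaptors was therefore not detectable in CD122+T-bet- cells without C-myc. The interval of Fcer1g covers counting error only and sets no limit on a difference between genotypes. Hcst and Tyrobp had too few transcripts to be called.

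Among the CD3 chains, Cd3e rose from the TBGR C-mycfl/fl to the TBGR C-mycD/DCd4 mouse. Cd3e was at 613 and 734 CPM in TBGR C-mycD/DCd4 CD122+T-bet- libraries against 304, 263, 325 and 138 in TBGR C-mycfl/fl, and thus rose 2.45-fold (log2 1.29, interval 1.06 to 1.54). Without the shallow floxed library the log2 ratio was 1.19. Genes listed for other cell types also differed between these pools. A list of γδ T cell genes summed to 1088 CPM in the TBGR C-mycD/DCd4 mouse against 428 CPM in the floxed mouse. A list of B cell genes summed to 124 against 22.4 CPM. A list of NK cell genes summed to 166 against 30.4 CPM, of which Kit held 108 of 119 and 20 of 23 transcripts. Eomes read 4 against 0 transcripts, Itga2 2 against 0, Klri2 3 against 1, Klrb1c 2 against 2 and Ncr1 0 against 0. Without cells that held a transcript of Trdc, the constant chain of the δ receptor, the log2 ratio of Cd3e was 1.38, and the part of NK and B cells in it was not tested. Cd3d was at 448 and 473 against 239.7, 338, 369.9 and 191 CPM (log2 0.62, interval 0.37 to 0.87), and Cd3g at 667 and 777 against 595, 454, 483 and 286 CPM (log2 0.60, interval 0.40 to 0.79). Neither reached 2-fold, although neither had overlapping libraries. Cd247 did overlap, at 105 and 149 against 83.0, 111, 76.7 and 21.2 CPM (log2 0.66, interval 0.19 to 1.15).

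The kinases gave smaller values in the same direction. Zap70 was at 206 and 191.7 CPM against 138, 125, 122 and 42.4 (log2 0.75, interval 0.36 to 1.15). Lck was at 473 and 573 CPM against 392, 387, 369.9 and 361 (log2 0.48, interval 0.25 to 0.70). In CD122- cells 0 of 6 tested members passed between the genotypes, where 12.5% of genes rose and 0.517% fell. The nearest was Cd3e at 381 and 356 CPM against 233, 251, 156 and 128 (log2 0.91, interval 0.62 to 1.20). Zap70 there was at 87.0 and 103 against 121, 41.9, 13.3 and 24.4 CPM, with overlap. Without the first floxed library Cd3e (1.002) and Zap70 (1.83) passed, and without the second Cd3e did (1.06). In CD122+T-bet- cells 1 of 7 tested members rose (Cd3e), where 13% of genes rose and 7.05% fell. Libraries lay apart for 2 of 6 and 5 of 7 members, beside 29.5 and 35.8% of genes. The median of all genes was shifted to 0.46 in CD122- and 0.12 in CD122+T-bet- cells. Scaled by the median of all genes or by a trimmed mean (TMM), the ratios of Cd3d, Cd3g, Fcer1g and Hcst in CD122- cells turned negative, so no direction is given for them.

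Within the TBGR C-mycD/DCd4 mouse, 2 of 7 tested members rose from CD122- to CD122+T-bet- (Fcer1g and Zap70), where 12.2% of genes rose and 6.89% fell. Libraries lay apart for 6 of 7, beside 56% of genes. Fcer1g had enough transcripts only through the CD122+T-bet- cells (134 transcripts against 2), and nothing is read from these counts against those shares. Zap70 went from 87.0 and 103 to 206 and 191.7 CPM (log2 1.03, interval 0.62 to 1.46), a value that was 0.94 relative to the median of all genes, 0.99 without the first CD122+ library and 0.94 without the first CD122- library. Cd3d (log2 0.80), Cd3e (0.90), Cd3g (0.64) and Cd247 (0.77) also had CD122+ libraries above the CD122- ones without reaching 2-fold, although Cd3e (1.01) passed without the first CD122+ library and Cd247 (1.05) without the first CD122- library. Cd247 in this mouse was thus 97.0 and 62.2 CPM in CD122- and 105 and 149 CPM in CD122+ cells, the opposite order to the TBGR mouse. That contrast between mice was not tested.

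**Figure D4:**
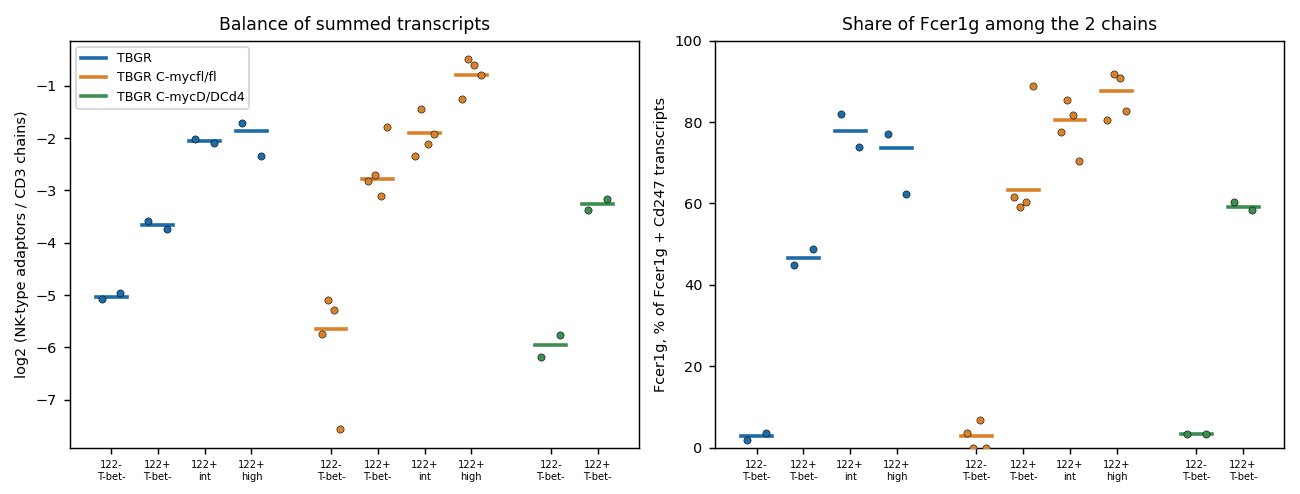
Left, log2 of summed NK-type adaptor transcripts (Fcer1g, Tyrobp and Hcst) over summed CD3 chain transcripts (Cd3d, Cd3e, Cd3g and Cd247); right, Fcer1g as a percent of Fcer1g plus Cd247 transcripts. Points are libraries and lines the pooled value of a population; the Fcer1g share is 2.74 to 3.33% in the CD122- populations and 46.5 to 87.7% in the CD122+ populations, and on the left the library with 0 adaptor transcripts is drawn with the 0.5 transcripts added.

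The balance between both sets of chains was read as the sum of the 3 NK-type adaptors over the sum of the 4 CD3 chains, from the same cells and libraries. Because the assay counts 3' ends, each molecule is counted alike whatever its length, but capture may still differ between genes, so the ratio is compared between populations only. TBGR libraries held 2.93 and 3.16 adaptor transcripts per 100 CD3 transcripts in CD122-, 8.34 and 7.45 in CD122+T-bet-, 24.7 and 23.6 in T-bet int, and 30.5 and 19.7 in T-bet high cells. The libraries separated at the first and second steps, with log2 differences of 1.38 ± 0.140 and 1.60 ± 0.123 (SD, n = 2 and 2 libraries). At the last step they overlapped (0.19 ± 0.444), and the value was 0.34 with the deeper T-bet high library and -0.28 with the shallow one.

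In the TBGR C-mycfl/fl mouse the libraries held 1.67, 2.71, 2.27 and 0 per 100 in CD122-, 14.0, 15.3, 11.5 and 28.3 in CD122+T-bet-, 19.6, 36.9, 22.9 and 26.2 in T-bet int, and 41.7, 71.1, 65.7 and 57.3 in T-bet high cells. Within libraries the first step was 2.19 to 5.77 (log2) and the last 0.94 to 1.51, above 0 in 4 of 4 libraries each time. Between CD122+T-bet- and T-bet int cells the difference was 0.87 ± 0.686 (SD, n = 4 and 4 libraries), with overlapping libraries. The largest of the first-step values came from the library with 0 adaptor transcripts in CD122- cells and rests on the 0.5 transcripts added to every sum. The TBGR C-mycD/DCd4 libraries held 1.22 and 1.75 in CD122- and 9.53 and 11.1 in CD122+ cells, a difference of 2.70 ± 0.332. Against floxed CD122+T-bet- cells that was a log2 difference of -0.48 ± 0.587 (SD over 2 and 4 libraries), with both libraries of the deletion below all 4 floxed ones and a difference smaller than its SD. Without floxed library 4 the difference was -0.37. The adaptor sum was 175 and 236 CPM against 171, 178, 144 and 180.3, and the CD3 sum was 1833 and 2133 against 1222, 1166, 1254 and 636.

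FcRγ and ζ are alternative partners in some receptors, so Fcer1g was also read as a share of Fcer1g plus Cd247 transcripts. The share was 2.74% (exact binomial interval 1.01 to 5.87) in TBGR CD122-, 46.5% (40.4 to 52.6) in CD122+T-bet-, 77.9% (74.1 to 81.4) in T-bet int and 73.7% (67.0 to 79.7) in T-bet high cells. In TBGR C-mycfl/fl cells it was 2.74% (0.334 to 9.55), 63.3% (55.6 to 70.6), 80.5% (75.5 to 84.8) and 87.7% (84.3 to 90.6). In TBGR C-mycD/DCd4 cells it was 3.33% (0.406 to 11.5) and 59.0% (52.3 to 65.5). Fcer1g thus went from a few percent of this pair in CD122- cells to 44.8 to 91.9% in every CD122+ library of the 3 mice.

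**Figure D5:**
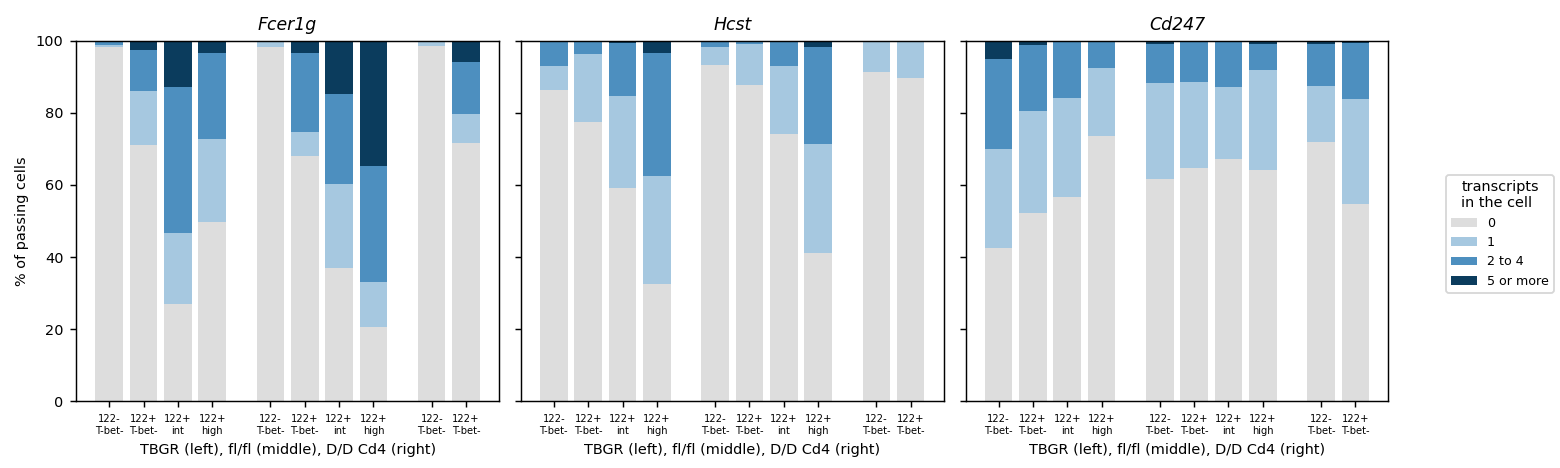
Percent of passing cells with 0, 1, 2 to 4 or 5 or more transcripts of Fcer1g, Hcst and Cd247 in each sorted population, before thinning. Cells with Fcer1g make up 1.72, 29.0, 73.1 and 50.3% of the TBGR populations, and 39 of 112 TBGR C-mycfl/fl T-bet high cells hold 5 or more transcripts.

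The counts of single cells showed how these levels were spread. Cells were thinned to 2000 transcripts each, because the median depth of a population ranged from 4238.5 to 7073.5 transcripts per cell, and no passing cell was lost by this. Fcer1g was then seen in 3 of 174, 21 of 186, 64 of 171 and 46 of 147 TBGR cells, or 1.72, 11.3, 37.4 and 31.3%. In TBGR C-mycfl/fl cells it was seen in 0 of 120, 20 of 122, 44 of 116 and 67 of 112 cells. With 0 of 120 cells, 3 counts would be 2.50% and the exact binomial interval reached 3.03%, a limit on cells with a transcript and not on cells that express the gene. In TBGR C-mycD/DCd4 cells it was seen in 1 of 128 and 28 of 137. Without thinning, the TBGR shares were 1.72, 29.0, 73.1 and 50.3%. The CD122- cells, with a median depth of 5118 transcripts in TBGR against 7073.5 in CD122+T-bet- cells, had the lowest shares, and a share at or below theirs was read as background. Empty barcodes together held 25 Fcer1g transcripts, or 1.60% of the number in cells, against 0.565% for all genes.

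Fcer1g was unevenly spread at the CD122+T-bet- stage. Before thinning, 54 of the 186 TBGR cells there held it, 28 of them with 1 transcript and 5 with 5 or more, and 1 cell held 11. The 19 cells with the most held 66.7% of the Fcer1g transcripts. In T-bet int cells 125 of 171 held it, 22 with 5 or more, and the top 18 cells held 38.6%. In TBGR C-mycfl/fl T-bet high cells 39 of 112 held 5 or more. A lower mean count alone also raises the share of the top cells, and the spread itself was not tested.

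Hcst was seen in 6.90, 6.45, 14.6 and 38.8% of thinned TBGR cells and in 4.17, 5.74, 12.1 and 31.2% of TBGR C-mycfl/fl cells. Tyrobp was seen in 12 of 112 thinned TBGR C-mycfl/fl T-bet high cells (10.7%) and in 0 to 3.40% of the cells elsewhere. Cd247 went the other way in TBGR cells (37.9, 18.3, 18.7 and 13.6%), but not in TBGR C-mycfl/fl (21.7, 15.6, 13.8 and 19.6%) or TBGR C-mycD/DCd4 cells (12.5 and 25.5%). Zap70 was seen in 23.6, 35.5, 32.7 and 39.5% of TBGR cells.

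Both kinds of chain occurred in the same cells. After thinning, at least 1 CD3 chain was seen in 93.7, 93.0, 96.5 and 93.9% of TBGR cells and at least 1 NK-type adaptor in 8.62, 17.2, 48.0 and 55.1%. Of the 81 TBGR T-bet high cells with an adaptor, 79 also held a CD3 chain. In TBGR C-mycfl/fl T-bet high cells 70 of 79 did. Cells with an adaptor and no CD3 chain were thus few, and such a cell can still have an unsampled CD3 transcript at this depth.

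Pairs of genes within cells are given as shares, since cells of 1 mouse are not replicates. In TBGR T-bet int cells Fcer1g was seen in 45 of 99 thinned cells with Il2rb and in 19 of 72 without it, and in 32 of 65 with Klrd1 (CD94, an NK receptor chain) and 32 of 106 without. For Il2rb the other CD122+ populations were mixed. The share was again higher with Il2rb in TBGR C-mycfl/fl T-bet int (25 of 44 against 19 of 72). The same held for TBGR C-mycfl/fl CD122+T-bet- (10 of 46 against 10 of 76) and TBGR C-mycD/DCd4 CD122+T-bet- (13 of 42 against 15 of 95). It was not higher in TBGR CD122+T-bet- (7 of 76 against 14 of 110) or TBGR T-bet high (27 of 90 against 19 of 57). Nor was it in TBGR C-mycfl/fl T-bet high cells (35 of 59 against 32 of 53). In TBGR T-bet high cells Fcer1g was seen in 34 of 82 with Klrd1 and 12 of 65 without, and in TBGR C-mycfl/fl T-bet high cells in 36 of 55 and 31 of 57. Of TBGR T-bet high cells with Klrk1, the gene of the Hcst partner NKG2D, 33 of 83 held Hcst, as did 24 of 64 without Klrk1. In TBGR T-bet int cells Fcer1g was seen in 11 of 32 with Cd247 and in 53 of 139 without it.

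The other genes of the pathway were read from lists of the genes known to act beside the members. Of 20 proximal TCR adaptors and enzymes, 19 were listed and tested at every TBGR step. At the first, 1 rose (Nck1, an actin adaptor, 39.5 against 17.3 CPM), where 11.2% of all tested genes did, with a list median of -0.38 beside 0.26 for all genes. At the second, 1 fell (Plcg1, phospholipase Cγ1, 25.5 against 60.6 CPM), where 4.12% did. At the last, where 6.58% of genes rose and 9.87% fell, 4 rose: Plcg1 (72.4 against 25.5 CPM), Malt1 (89.4 against 41.0), Tespa1 (65.3 against 31.7) and Lat, the scaffold phosphorylated by Zap70 (565 against 282). Themis, a thymocyte adaptor, fell there, at 4.26 against 45.7 CPM (3 against 59 transcripts, log2 -3.21, interval -5.74 to -1.81), and the list median was 0.30 beside -0.11.

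Of 20 negative regulators, 19 were tested at the first TBGR step, with 4 higher and 4 lower, where 11.2% of genes were higher and 3.05% lower. Ubash3b, a phosphatase that acts on Zap70 and Syk, was at 417 CPM in CD122+T-bet- against 86.7 in CD122- cells, and Ptpn22, a phosphatase that acts on Lck, at 204 against 73.4. Ubash3a (11.6 against 45.9 CPM), Sit1 (14.3 against 47.9) and Cd6 (88.5 against 270.3) were lower. The paralogues Ubash3a and Ubash3b thus moved in opposite directions at the step where Fcer1g rose. Ubash3b fell again in T-bet high cells (108 against 381 CPM) while Cd6 rose (115 against 42.6) and Lax1 rose (417 against 182). In T-bet int cells Dgkz (135 against 295 CPM) and Cd6 (42.6 against 88.5) had fallen and Pag1, the adaptor that brings Csk to Lck, had risen (70.4 against 34.7), at the step where 2.58% of all genes rose and 4.12% fell.

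Of 14 receptors that pair with Fcer1g, Tyrobp or Hcst, 10 were listed, and 0 had enough transcripts to be tested at the first step in any of the 3 mice. In TBGR CD122+T-bet- cells Fcer1g was at 85.8 CPM and the listed receptors together at 28.6 CPM. Klrb1c rose in T-bet int cells, and Klrb1c, Klrk1 (555 against 7.74 CPM) and Klrc2 (309 against 5.42 CPM) rose in T-bet high cells. Klrk1 (391 transcripts against 10) and Klrc2 (218 against 7) had enough transcripts only through the T-bet high cells, so no count of the list is given for this step. In TBGR C-mycfl/fl T-bet high cells Klrk1 (112 transcripts against 15) and Klrb1c (57 against 8) rose. Both again had enough transcripts only through the T-bet high cells. Among 12 NK-side signal molecules (11 listed), Txk, a Tec kinase, fell at the first TBGR step (19.1 against 53.0 CPM), rose at the second (41.8 against 19.1) and rose at the last (115 against 41.8). Plcg2, the phospholipase used downstream of Syk, fell to 1 transcript in TBGR T-bet high cells from 83 in T-bet int cells (log2 -4.92, interval -10.8 to -2.98). It had enough transcripts there only through the T-bet int cells. In the TBGR C-mycfl/fl mouse Plcg2 held 29 transcripts in T-bet int and 15 in T-bet high cells, too few to be called.

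With C-myc deleted, 6 of the 13 proximal adaptors and enzymes tested in CD122+T-bet- cells rose and 0 fell, among them Fyb (187 against 59.4 CPM), Ptprc, which is CD45 (1162 against 444), Rasgrp1 (347 against 144), the kinase Fyn (294 against 132) and Tespa1. The list median was 0.91 beside 0.12 for all genes, where 13% of genes rose. Of 17 negative regulators tested, Ptpn22 (227 against 88.5 CPM) and Sh2d2a (131 against 56.8) rose, and of 5 NK-side molecules Vav3 rose (58.6 against 27.7).

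Within the 2-week-old mice the same lists were read at each step. In TBGR C-mycfl/fl cells 5 of 16 tested negative regulators rose at the first step (Ptpn22, Ptpn6, Ubash3b, Dok2 and Lax1) and 0 fell, where 12.8% of genes rose. In TBGR C-mycD/DCd4 cells 5 of 17 rose (Ptpn22, Ptpn6, Ubash3b, Lax1 and Sh2d2a) and 0 fell, where 12.2% of genes rose. Ptpn22 and Ubash3b thus rose at the first step in all 3 mice. Of the proximal adaptors and enzymes, 1 of 12 rose (Bcl10) and 1 fell (Fyb) in TBGR C-mycfl/fl, and 1 of 16 rose (Fyn) and 2 fell (Lat and Themis) in TBGR C-mycD/DCd4. At the later steps of the TBGR C-mycfl/fl mouse, 0 negative regulators passed in either direction, and of the proximal list Fyb rose at the last step. Of the NK-side molecules, Inpp5d (SHIP1) rose at the first step in both, 1 of 3 tested and, with Vav3, 2 of 5, and Sh2d1a fell in TBGR C-mycD/DCd4.

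Genes of other cell types were measured in the same pools, because Fcer1g and Tyrobp are also made by myeloid cells, mast cells and NK cells. Of 9 listed myeloid genes, the summed level was 108, 236, 117 and 115 CPM in the 4 TBGR populations (library range 70.3 to 321), led by Cst3, and 40.7, 62.0, 61.1 and 41.5 CPM in TBGR C-mycfl/fl. In TBGR cells Cst3 rose at the first step (67 to 314 transcripts, log2 1.64), where Fcer1g also rose and 11.2% of genes did. Over the 4 TBGR populations Cd68 held 5, 21, 7 and 3 transcripts, Csf1r 19, 4, 1 and 0, and Cd14 12, 5, 0 and 0. Itgam, Spi1 and Mpeg1 held at most 3 transcripts in any of these populations, and Itgax and Fcgr1 were at 0 in all of them. The sum of 4 listed mast cell and basophil genes was 19.4, 4.08, 1.55 and 0 CPM in the TBGR populations. All of it was Cpa3 (19, 6, 2 and 0 transcripts), with Mcpt4, Ms4a2 and Gata2 at 0. The NK list of 6 genes summed to 20.4, 136, 105 and 604 CPM, with Kit leading in CD122+T-bet- and Klrb1c in T-bet high cells. Ncr1, the defining NK receptor gene, was at 0 in all populations of the TBGR and TBGR C-mycD/DCd4 mice and at 3 transcripts in TBGR C-mycfl/fl T-bet high cells. The part of such cells in the Fcer1g result was not tested.

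Genes of γδ T cells moved with the sorted populations as well. Trdc, the constant δ chain, was at 87.7, 65.4, 9.28 and 0 CPM in TBGR cells, at 139, 9.24, 3.53 and 4.29 CPM in TBGR C-mycfl/fl, and at 346 and 212 CPM in TBGR C-mycD/DCd4 cells. The summed γδ list of 6 genes was 575, 912, 1063 and 1337 CPM in TBGR cells. Without cells that held a Trdc transcript, the first-step log2 ratio of Fcer1g was 3.41 in TBGR, 5.72 in TBGR C-mycfl/fl and 4.90 in TBGR C-mycD/DCd4, and the balance differences were 1.56, 2.72 and 2.42. Zap70 was then no longer past 2-fold in TBGR C-mycfl/fl. The αβ constant chains Trac and Trbc1 together stood at 4751, 3888, 3254 and 3425 CPM in TBGR cells.

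Genes of CD4+CD8+ double positive thymocytes moved with the first step, where Cd247 fell in the TBGR mouse. The summed level of 8 such genes was 738, 138, 61.9 and 155 CPM in the TBGR populations, and Cd4 itself went from 574 transcripts in CD122- to 88 in CD122+T-bet- cells. Rag1 and Rag2 had 1 transcript each in those CD122- cells and 0 in CD122+T-bet- cells. The T-bet high value came from libraries at 72.1 and 321 CPM, the second being the shallow one. The list went from 375 to 42.2 CPM at the first step in TBGR C-mycfl/fl and from 763 to 112 CPM in TBGR C-mycD/DCd4, where Cd247 did not fall. The part of these cells in the Cd247 result was not tested.

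Last, the genes whose level over the 10 combinations of mouse and population was most like a member's were ranked by Pearson's r among 8141 genes with at least 100 transcripts. The 10 points share libraries, mice and depth, and r is a description. Fcer1g was closest to Tmsb4x (r = 0.99), Cdc42 (0.99) and Esyt1 (0.98). Tyrobp was closest to Ifng (0.95), Pag1 (0.93) and Klrd1 (0.93), Zap70 to Tango2, Pigs and Rrbp1 (0.98 each), and Cd247 to BB187690 (0.89), Zfp710 (0.88) and Gm10660 (0.86). Ifng encodes interferon-γ, and Klrd1 the NK receptor chain CD94.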

How the data were processed

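Single cells were sorted into plates and processed by CEL-Seq2, which counts 3' ends with molecular identifiers of 6 bases. Reads were mapped in sense direction and reads with multiple positions were discarded. The authors demultiplexed with bcl2fastq (version 2.17.1.14) and aligned with BWA (version 0.6.2-r126) to mouse GENCODE VM9 transcripts, per the submitters' processing notes and the study's methods. The deposited values are expected counts: the authors converted the number n of distinct identifiers to transcripts as -4096 ln(1 - n/4096), and all values fitted this form within 1e-06 (0 exceptions). Other columns of these tables, the 96 empty barcodes of each library, were used only as a background.

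Mitochondrial genes and spike-ins were set aside, cells with at least 2000 transcripts were kept, and transcripts were summed per library and population and divided by the library's total (CPM, transcripts per 1000000). Each genotype was taken as 1 mouse, after the deposited design text, so no test between groups was made; p-values were not computed. Ratios were formed from pooled CPM with 0.5 transcripts added and exact 95% Poisson-based intervals, and shares with exact Clopper-Pearson intervals; both cover counting error only. A gene was called past 2-fold (log2 ratio 1) with libraries that did not overlap (in TBGR C-mycfl/fl, for populations sharing libraries, the same direction in every library) and at least 50 transcripts in the groups together. For shares of cells, each cell was thinned to 2000 transcripts. Doublets were not called. Python 3.11.15, numpy 2.4.6, scipy 1.17.1, pandas 2.3.3 and matplotlib 3.10.9 were used.

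The members and gene lists were chosen with earlier results of these data known. All 10 members were named in every comparison. For Fcer1g, Tyrobp, Zap70 and Cd247, the 3 genes with the highest Pearson's r of log2(CPM + 1) were named, and from each pathway list at most 5 called genes with the largest ratio; further genes named from the lists were chosen after their values were seen. Alternatives were TMM scaling, scaling by the median of all genes, observed identifiers, other minima per cell and per gene, equal weight per cell, thinned cells, cells without Trdc, totals without ribosomal genes, and leaving out each library. The genome positions are those of GENCODE M21, whereas the counts were made with VM9, also on GRCm38. Some genes of the pathway lists are not reported here.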

Additional observations from a re-analysis of the deposited data

Results flagged for a closer look

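Within the TBGR C-mycfl/fl mouse, 48 groups of 4 libraries were examined for a library that stood apart from the other 3, and 4 did, where chance gives about 1 in 20. Tyrobp was at 8.90 CPM in 1 CD122- (T-bet-) library and at 0 in the others. Syk was at 4.45 CPM in 1 CD122+T-bet- library and at 10.02 CPM in 1 T-bet high library, with 0 in the others. The summed CD3 chains were at 636 CPM in CD122+T-bet- library 4, the shallowest, against 1166 to 1254 CPM in the others. The Tyrobp and Syk values rest on 1 or 2 transcripts each.

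Fcer1g had a log2 ratio of -0.61 from T-bet int to T-bet high in the TBGR mouse, with both T-bet high libraries below the T-bet int ones, and of 0.998 in the TBGR C-mycfl/fl mouse, where 4 of 4 libraries were higher. The difference was not tested, and the mice differed in age and C-myc allele.

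Empty barcodes, which received no cell, held transcripts of 7 members above the limit of 3 counts: 14 of Cd3d, 12 of Cd3e, 19 of Cd3g, 25 of Fcer1g, 4 of Tyrobp, 38 of Lck and 7 of Zap70. Relative to the transcripts in cells these were 0.352, 0.313, 0.409, 1.60, 4.26, 0.743 and 0.467%, against 0.565% for all genes. Hcst had 2, and Cd247 and Syk had 0.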

How the results depend on the processing

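Of the balance values under alternatives, 74 stayed within the spread of libraries and 7 moved. For the member ratios the numbers were 759 and 51. None of the 108 values of called member ratios changed sign, and 55 of the 702 values of uncalled ones did. Called ratios were picked for being at least 2-fold, so a kept sign says little about how stable the calls were. No paired analysis was possible because no test was made, and the ratios within TBGR C-mycfl/fl libraries were given beside the pooled ones. The balance at the first TBGR step was 0.86 with thinned cells and 1.56 without Trdc cells. At the TBGR step into T-bet int it was 2.08 thinned and 1.82 with equal weight per cell. At the last TBGR step it ranged from -0.28 to 0.34 over the libraries left out, of which the one without T-bet high replicate 2 was singled out after the data were seen. At the last TBGR C-mycfl/fl step it was 0.83 thinned, and at the TBGR C-mycD/DCd4 step 2.17 thinned and 2.30 with equal weight per cell.

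The number of members past 2-fold also moved. At the first and second TBGR steps it was 1 with thinned cells or a minimum of 200 transcripts (Cd247, then Fcer1g), and 1 to 2 at the first with a library left out. With no minimum it was 3 at both (Syk, then Tyrobp). The thinned log2 ratios of Fcer1g were 2.29 and 2.50. At the last TBGR step it was 2 with no minimum and 1 to 2 with a library left out. At the first TBGR C-mycfl/fl step it was 1 under TMM or median scaling, equal weight per cell or without Trdc cells, 0 with thinned cells or a minimum of 200, 3 with no minimum (Syk), and 1 to 2 with a library left out. At the second it was 2 with observed identifiers or equal weight per cell, 0 with at least 3000 transcripts per cell, without Trdc cells or with a minimum of 200, and 0 to 2 with a library left out. With thinned cells or totals without ribosomal genes the number there stayed at 1, but the member was Fcer1g in place of Hcst. At the last it was 2 under TMM or median scaling, equal weight per cell, without Trdc cells or with no minimum, 3 with at least 1000 transcripts per cell, 0 with a minimum of 200, and 1 to 2 with a library left out. At the TBGR C-mycD/DCd4 step it was 1 under TMM or median scaling, observed identifiers, at least 1000 transcripts per cell, equal weight per cell or a minimum of 200, and 3 without Trdc cells (Cd3e). Between genotypes in CD122- cells it was 0 to 2 with a library left out. Cd3e stayed past 2-fold between genotypes in CD122+T-bet- cells with each library left out (1.14 to 1.40). Thinning and the minimum of 200 leave fewer members tested; for the other changes the cause was not tested. Depth limited Tyrobp and Syk, which were under the minimum of 50 transcripts at each step as reported; Tyrobp passed at the last TBGR C-mycfl/fl step with at least 1000 transcripts per cell or equal weight per cell, and Tyrobp or Syk at 5 steps with no minimum.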

Other observations

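Fcgr3, the low-affinity IgG receptor CD16 that needs FcRγ at the cell surface, was at 2.04, 0, 13.2 and 4.26 CPM in the 4 TBGR populations and at 0, 1.32, 15.3 and 27.2 CPM in TBGR C-mycfl/fl. Kit, a receptor of early progenitors, went from 7.14 CPM in TBGR CD122- to 123 CPM in CD122+T-bet- cells, the populations between which Fcer1g rose. A list of B cell genes summed to 124 CPM in TBGR C-mycD/DCd4 CD122+T-bet- cells, with libraries at 19.1 and 207 CPM.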
